A study of Mus musculus with 6 samples.

Results

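Transcript levels of 36 genes of the PI3K, AKT and mTOR pathway were examined in Th9 cells of the mouse, CD4 helper T cells that are defined by interleukin 9. The genes were chosen by name, as subunits of the kinases, the phosphatases that oppose them, nutrient sensors and AMPK, and all 36 were found among the 21233 genes of the count table. The study compared Th9 cells treated with sorafenib, a kinase inhibitor drug that acts on RAF and on receptor tyrosine kinases, with Th9 cells that did not receive it. Each group had 3 RNA-seq libraries, with no genotype, strain, age, dose or time given in the sources used here. Nothing in the labels says that replicates came from separate cultures or mice, and the p-values therefore reflect spread among these libraries that may be technical. In bulk RNA, fewer cells of a type and less RNA per cell cannot be told apart.

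PI3K is a lipid kinase that, after engagement of antigen, costimulatory or cytokine receptors, makes the membrane lipid PIP3. PIP3 recruits the kinases PDK1 and AKT, and AKT restrains the FOXO transcription factors and the TSC complex. Loss of TSC activity frees the GTPase RHEB to activate mTORC1, a kinase complex that is held at the lysosome by Rag GTPases only when amino acids are sufficient. In T cells the pathway is known for coupling activation to growth, metabolism and helper cell fate, while AMPK and its activator LKB1 restrain it when energy is low.

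Total counts lay between 36981476 and 38126521 per library, and all 36 members passed the filter on low counts. Levels are given as CPM, counts scaled to library size with TMM factors. Where genes are compared with each other, levels are given as FPKM, which divides by gene length and column total without TMM factors. Differences between the groups can therefore vary between CPM and FPKM, and the main test used the TMM scaling. Values with ± are mean and SD over 3 libraries unless SE is stated. Of 8 CD4 T cell markers 7 were in the table, summing to 2196 to 2221 CPM in control and 1843 to 1915 CPM in sorafenib libraries, and 4 of them (Cd3e, Cd3g, Cd2 and Lck) fell while Cd4 itself did not pass. The 4 Th9 markers summed to 1682 to 1848 against 1659 to 1693 CPM, in the same order, with Il9 and Il9r higher. Markers of other cells were low. The 6 B cell markers summed to 26.5 to 33 against 31.3 to 33.8 CPM, but 5 passed the test, 4 as higher, among them Cd79a, Cd79b and Pax5, and Ebf1 as lower, and Ms4a1 had 0 to 2 counts. Neutrophil markers summed to 3.63 to 3.7 against 0.204 to 0.567 CPM with Ly6g lower. CD8 and NK markers summed to 6.17 to 7.09 against 8.91 to 11.1 CPM with Cd8b1 higher. Stromal, endothelial and epithelial markers summed to 3.002 to 4.21 against 1.62 to 1.96 CPM with Epcam lower. Each of these sums followed the 1 gene named. The other tested gene of each list did not pass: Mpo (mean 0.271 against 0.327 CPM), Cd8a (0.383 against 0.429 CPM) and Col1a1 (0.74 against 0.919 CPM). S100a8, S100a9 and Ncr1 had no counts to read, being absent from the count table. Myeloid markers summed to 5.33 to 8.54 against 6.79 to 8.63 CPM, mostly Cd68 (adjusted p = 0.884), and mast cell and basophil markers to 16.7 to 18 against 18.2 to 19.4 CPM, nearly all Kit (adjusted p = 0.559). The part of these markers in the results was not tested. Control replicate 2 lay farther from its group mean than any other library, with a root mean square deviation of 0.327 on the log2 scale against 0.193 to 0.256 in the other libraries. Between pairs of libraries, the chi-square per degree of freedom was 62.9 and 51.3 for control replicate 2 against controls 1 and 3. It was 15.5 between controls 1 and 3, and 6.16 to 13.5 among sorafenib libraries. Pairs of a control and a sorafenib library had 55 to 68.4, so control replicate 2 was about as far from the other controls.

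The comparison asked which transcripts of the pathway differ between treated and untreated Th9 cells. By edgeR's quasi-likelihood test, with adjusted p under 0.05 as the threshold, 5 of the 36 members rose and 6 fell. Over all 13255 genes tested, 17.9% passed, 8.51% as higher and 9.43% as lower, against 30.6% of members. Among genes averaging at least 20 CPM, where 33 of the 36 members lie, 18.9% of all genes passed and 11 of the 33 members did. The members were chosen with earlier results of these data known, so these shares do not measure an excess in the pathway. The members that rose were Pik3r5, Pik3ip1, Inpp4b, Foxo3 and Flcn, and those that fell were Pik3cg, Akt2, Sgk1, Depdc5, Nprl2 and Rps6kb1. The median log2 fold change was -0.03 over the members and -0.01 over all genes tested. The groups did not overlap for 17 of 36 members, beside 36.3% of all genes. With total counts in place of TMM, 5 members were called as higher and 3 as lower, and filtered log2(FPKM + 1) gave 6 and 3. Leaving out control replicate 3 gave 7 called members, leaving out sorafenib replicates 1, 2 and 3 in turn gave 5, 7 and 6, and leaving out control replicate 2 gave 13. Over all genes, 13543 to 13607 of them tested, the same fits called 1586, then 1294, 1549 and 1243, and then 4325.

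**Figure D1:**
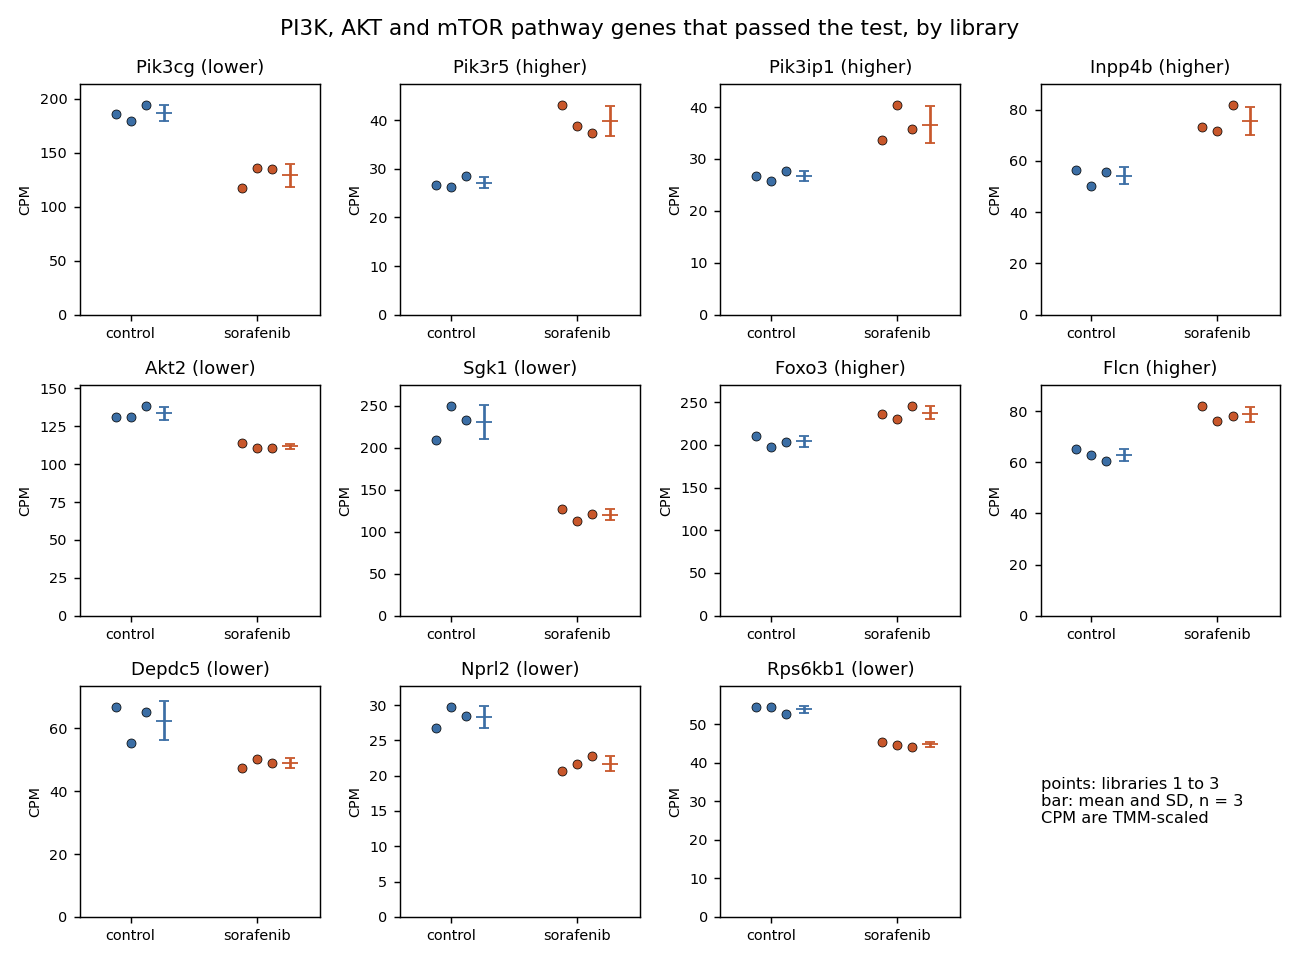
TMM-scaled CPM of the 11 members that passed the test, 1 panel a gene, with points for the 3 control and 3 sorafenib libraries and a bar for the mean and SD; every y axis starts at 0. In each panel the control and sorafenib libraries do not overlap, with Sgk1 showing the widest separation, 231 ± 20.6 CPM without and 120.4 ± 7.09 CPM with sorafenib.

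Among the genes of class I PI3K catalytic subunits, Pik3cd, which encodes p110δ, the form known for its role in lymphocytes, had the highest level per length of all 36 members, 104 ± 11.3 FPKM without and 104 ± 1.47 FPKM with sorafenib. Pik3cg, encoding p110γ, the form that is activated by G protein βγ subunits, followed among the catalytic genes with 22.9 ± 1.83 FPKM without and 16.7 ± 1.44 FPKM with sorafenib. Pik3ca, encoding the broadly expressed p110α, had 12.7 ± 1.18 FPKM without and 12.4 ± 0.261 FPKM with sorafenib, and Pik3cb, encoding p110β, had 0.895 ± 0.181 FPKM without and 0.931 ± 0.0376 FPKM with sorafenib. The order of these 4 genes was the same in all 6 libraries.

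Pik3cg was the only one of the 4 catalytic genes to pass the test. It had 185, 179.6 and 195 CPM in control replicates 1, 2 and 3 and 117, 135 and 135 CPM in sorafenib replicates 1, 2 and 3. Every sorafenib library was below every control library. The gene was 1.44-fold lower with sorafenib (adjusted p = 0.00102, on a log2 fold change of -0.53 with an SE of 0.08), and it passed under all 18 alternatives. Pik3cd had 684, 615 and 693 CPM in the control libraries and 643, 618 and 629.6 CPM in the sorafenib libraries, and these overlapped (log2 fold change -0.07, 95% interval -0.25 to 0.10). Pik3ca had 91.1 ± 4.37 CPM without and 84.7 ± 2.28 CPM with sorafenib, a difference with a 95% interval of -0.26 to 0.05 on the log2 scale. The interval for Pik3cb was wider, -0.37 to 0.34, at a mean level under 5 CPM.

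The genes of the p110γ enzyme moved in opposite directions. Pik3r5 encodes p101, a regulatory subunit that pairs with p110γ and conveys the signal from G protein βγ subunits. It had 26.7, 26.4 and 28.5 CPM in control replicates 1, 2 and 3 and 43.3, 38.8 and 37.5 CPM in sorafenib replicates 1, 2 and 3, so all sorafenib libraries were above all control libraries. Pik3r5 was 1.47-fold higher (adjusted p = 0.00139, on a log2 fold change of 0.55 with an SE of 0.08) and passed under all 18 alternatives. The ratio of Pik3r5 to Pik3cg FPKM, in which library scaling cancels, was 0.259, 0.264 and 0.263 in the control libraries and 0.666, 0.516 and 0.5005 in the sorafenib libraries. The exact permutation p of this ratio was 0.1 (two-sided), the smallest that 3 against 3 libraries allow, and the ratio was chosen after its values were seen. Pik3r6, which encodes p84, the other partner of p110γ, had a low level of 2.26 ± 0.381 CPM without and 1.44 ± 0.541 CPM with sorafenib and did not pass the test (adjusted p = 0.162).

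In share of the summed FPKM of the 4 catalytic genes, Pik3cd held 74.2%, 73.3% and 74.2% in the control libraries and 78.6%, 76.9% and 77% in the sorafenib libraries. Pik3cg held 15.8%, 16.9% and 16.4% in the control libraries and 11.2%, 13.3% and 13% in the sorafenib libraries. The control and sorafenib shares did not overlap for either gene (exact permutation p of 0.1 for each, the smallest possible). The shares add to a fixed total, so the higher share of Pik3cd and the lower share of Pik3cg are not separate results. The FPKM of Pik3cd itself averaged 104 in both groups. Over the 10 shares and ratios computed for this list, the Benjamini-Hochberg adjusted p of each of these 3 was 0.167. None could have passed, because the smallest possible p of 0.1 already lies above the threshold on adjusted p. The permutation test therefore cannot decide whether they differ between the groups. These shares describe transcripts per length and not protein.

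**Figure D2:**
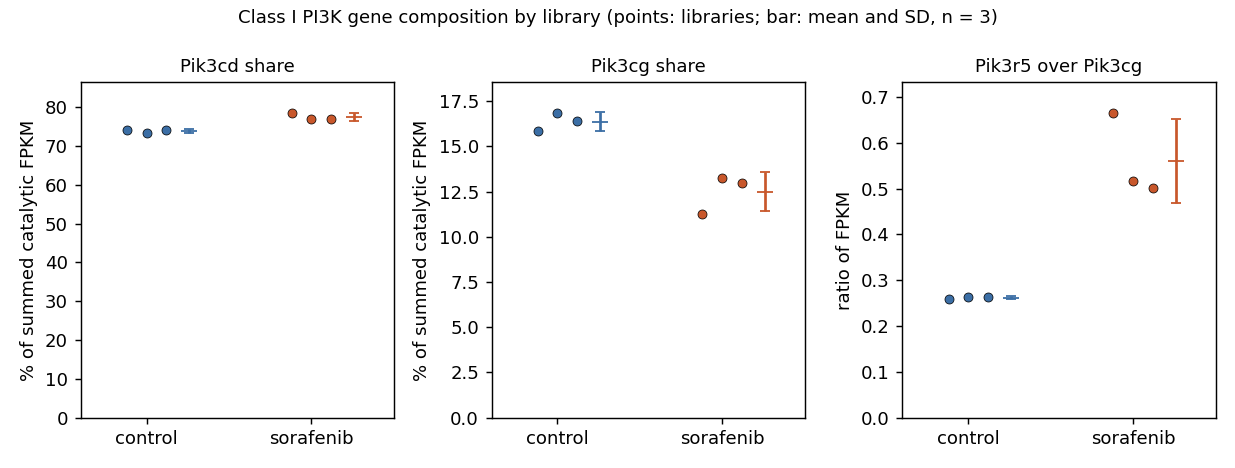
Share of Pik3cd and of Pik3cg in the summed FPKM of Pik3ca, Pik3cb, Pik3cd and Pik3cg (left and middle, in percent) and the ratio of Pik3r5 to Pik3cg FPKM (right), with points for libraries and a bar for the mean and SD over 3. The ratio lies at 0.262 ± 0.00288 in control and 0.561 ± 0.0912 in sorafenib libraries.

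Among the remaining regulators of PI3K, Pik3r1, the gene of the p85α subunit that stabilises and restrains p110α, p110β and p110δ, had 232, 180.2 and 209 CPM in the control libraries and 202, 213 and 212 CPM in the sorafenib libraries. These values overlapped, with a 95% interval of -0.19 to 0.21 on the log2 scale. Pik3ip1 encodes a transmembrane protein that inhibits PI3K and restrains T cell activation. Its level was 26.8, 25.7 and 27.7 CPM in control replicates 1, 2 and 3 and 33.6, 40.5 and 35.9 CPM in sorafenib replicates 1, 2 and 3. All sorafenib libraries lay above all control libraries, and the gene was 1.37-fold higher (adjusted p = 0.00598, on a log2 fold change of 0.45 with an SE of 0.09), a call kept under all 18 alternatives. Another gene in the table, Gm12592, shares 91 exon bases with Pik3ip1 on the opposite strand in GENCODE M21, and the strand setting of the counting is not given in the sources used here.

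The phosphatases that remove the products of PI3K are Inpp5d and Inpp4b in this list, while Phlpp1 removes a phosphate from AKT itself. Inpp4b, whose enzyme clears the lipid PI(3,4)P2, had 56.4, 50.3 and 55.8 CPM in control replicates 1, 2 and 3 and 73.3, 71.5 and 82 CPM in sorafenib replicates 1, 2 and 3. The groups did not overlap, and Inpp4b was 1.4-fold higher (adjusted p = 0.00255, on a log2 fold change of 0.48 with an SE of 0.08) and passed under all 18 alternatives. Inpp5d, the gene of SHIP1, which converts PIP3 to PI(3,4)P2 in blood cells, had 125, 105 and 129 CPM in the control libraries and 140.1, 135 and 142 CPM in the sorafenib libraries. Its groups did not overlap either, yet it missed the threshold (adjusted p = 0.104), and passed only after a correction for gene length (adjusted p = 0.0301). Phlpp1 had 12.3 ± 0.243 CPM without and 11.9 ± 1.81 CPM with sorafenib, with overlapping groups.

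Sgk1 had the largest difference of all 36 members. It encodes a serine and threonine kinase related to AKT that mTORC2 activates and that acts on FOXO factors and ion transport. Its level was 209, 249.9 and 233 CPM in control replicates 1, 2 and 3 and 127, 113 and 121 CPM in sorafenib replicates 1, 2 and 3. The highest sorafenib library was thus far below the lowest control library. Sgk1 was 1.91-fold lower (adjusted p = 5.13e-05, on a log2 fold change of -0.94 with an SE of 0.08) and passed under all 18 alternatives. Per length, the ratio of Sgk1 to Akt1 FPKM was 0.914, 0.973 and 0.965 in the control libraries and 0.543, 0.524 and 0.531 in the sorafenib libraries, a ratio chosen after its values were seen (exact permutation p of 0.1, the smallest possible).

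Akt1 and Akt2 encode AKT isoforms, Akt2 being the one tied to glucose uptake in insulin-responsive tissue. Akt2 had 131, 131 and 138 CPM in control replicates 1, 2 and 3 and 114, 111 and 110.4 CPM in sorafenib replicates 1, 2 and 3, with no overlap, and was 1.2-fold lower (adjusted p = 0.0178, on a log2 fold change of -0.26 with an SE of 0.06). Akt2 missed the threshold when control replicate 3 or any 1 sorafenib replicate was left out (adjusted p of 0.065 to 0.109), with total counts only (adjusted p = 0.104) and on filtered log2(FPKM + 1) (adjusted p = 0.109). Akt1 had the second highest level per length of the members, 56.7 ± 1.12 FPKM without and 55.7 ± 2.004 FPKM with sorafenib. Its CPM values of 165, 186 and 175 in the control libraries and 169, 156 and 165 in the sorafenib libraries overlapped (log2 fold change -0.10, 95% interval -0.26 to 0.05). Pdpk1, which encodes the AKT activator PDK1, had 128 ± 4.94 CPM without and 129 ± 2.45 CPM with sorafenib, a difference bounded by -0.14 and 0.15 on the log2 scale.

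Foxo3, a transcription factor that AKT and SGK1 keep out of the nucleus, had 211, 198 and 204 CPM in control replicates 1, 2 and 3 and 236, 231 and 246 CPM in sorafenib replicates 1, 2 and 3. All sorafenib libraries were above all control libraries and Foxo3 was 1.16-fold higher (adjusted p = 0.0404, on a log2 fold change of 0.22 with an SE of 0.06). Foxo3 missed the threshold when control replicate 3 or any 1 sorafenib replicate was left out (adjusted p of 0.0858 to 0.211) and with no filter on low counts (adjusted p = 0.0578). Of the related genes outside the list, Foxo1 had 326 ± 38.3 CPM without and 302 ± 12.1 CPM with sorafenib and did not pass (adjusted p = 0.458), while Foxo4 fell 1.32-fold, to 24.9 ± 1.29 CPM against 32.8 ± 2.42 CPM in controls (adjusted p = 0.00993). Foxo4 missed the threshold when sorafenib replicate 1 or 3 was left out (adjusted p of 0.0596 and 0.0634) and on filtered log2(FPKM + 1) (adjusted p = 0.0629).

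None of the 6 mTOR complex genes passed edgeR's test, and the 3 genes of TSC and RHEB did not pass either; 0 of these 9 had an unadjusted p under 0.05, and 0 passed by DESeq2 or limma-voom. A p that misses the threshold does not show that levels were alike, and the intervals give the sizes within reach of the data. Mtor, the kinase, had 71.2, 59.5 and 67.9 CPM in the control libraries and 61.7, 66.2 and 65.3 CPM in the sorafenib libraries (log2 fold change -0.04, 95% interval -0.22 to 0.14). Rptor, the mTORC1 scaffold that binds substrates, had 39.6, 30.1 and 37.6 CPM in the control libraries and 41.1, 43.6 and 40.1 CPM in the sorafenib libraries, where the sorafenib libraries were all above the control libraries (adjusted p = 0.185). Rictor, the defining subunit of mTORC2, had 147, 103 and 138 CPM in the control libraries and 110.3, 106 and 111 CPM in the sorafenib libraries, with control replicate 2 below all of the sorafenib libraries and the other controls above them. Without control replicate 2, Rictor was called as lower (adjusted p = 2.41e-05), and so it was after a correction for gene length (adjusted p = 0.0262). Rptor was called as higher after that correction (adjusted p = 0.0472). Rptor shares 84 exon bases with its antisense gene Rptoros.

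Mlst8, the subunit shared by both complexes, had 24.3 ± 1.43 CPM without and 24.3 ± 2.43 CPM with sorafenib. Akt1s1, whose product PRAS40 inhibits mTORC1 until AKT phosphorylates it, had 30.9 ± 0.986 CPM without and 34.4 ± 3.6 CPM with sorafenib. Mlst8 shares 997 exon bases with Bricd5 and Akt1s1 shares 89 with Tbc1d17, on the opposite strand, in GENCODE M21. Deptor, the gene of another mTOR inhibitor, lay near the detection limit with 13, 22 and 5 counts in the control libraries and 9, 14 and 13 in the sorafenib libraries, too few to resolve a difference (log2 fold change -0.26, 95% interval -1.52 to 1.01). Tsc1, a subunit of the complex that keeps RHEB inactive, had 36.8 ± 6.12 CPM without and 42.3 ± 1.32 CPM with sorafenib. Its partner Tsc2, which shares 693 exon bases with Pkd1 on the opposite strand, had 54.2 ± 6.84 CPM without and 51.4 ± 2.21 CPM with sorafenib. Rheb had 37.9, 49.2 and 33.8 CPM in the control libraries and 47.9, 44.3 and 49.5 CPM in the sorafenib libraries, with control replicate 2 inside the range of the sorafenib libraries, and it was called as higher once that library was left out (adjusted p = 0.000407). Tsc1 was called as higher once control replicate 1 was left out (adjusted p = 0.035).

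**Figure D3:**
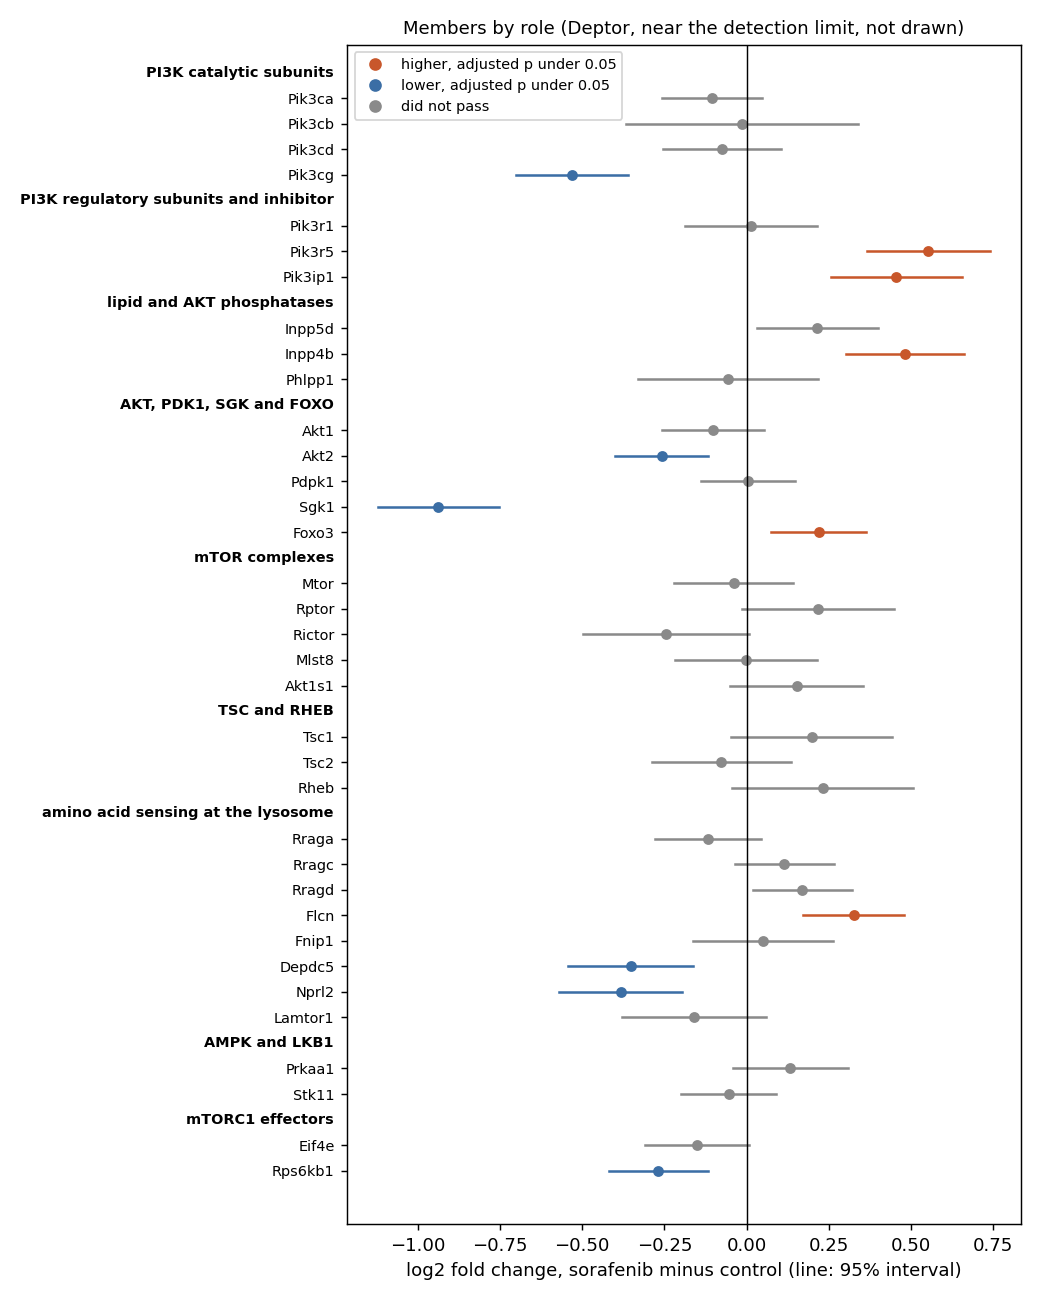
Log2 fold change (sorafenib minus control, x axis) with its 95% interval for 35 members in rows grouped by role, coloured by whether the gene rose, fell or did not pass; Deptor is left out because its interval is -1.52 to 1.01. Sgk1 lies farthest from 0, and the 24 drawn genes that did not pass have estimates between -0.25 and 0.23.

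Of the 8 members that sense amino acids at the lysosome, 1 rose and 2 fell, 37.5% beside 17.9% of all genes. Both that fell, Depdc5 and Nprl2, belong to GATOR1, the complex that switches off the Rag GTPases when amino acids are scarce. Depdc5 had 66.8, 55.3 and 65.2 CPM in control replicates 1, 2 and 3 and 47.4, 50.4 and 49 CPM in sorafenib replicates 1, 2 and 3. The groups did not overlap, and Depdc5 was 1.28-fold lower (adjusted p = 0.0164, on a log2 fold change of -0.35 with an SE of 0.09). Depdc5 missed the threshold when control replicate 3 or any 1 sorafenib replicate was left out (adjusted p of 0.0594 to 0.0901), with total counts only (adjusted p = 0.101) and on filtered log2(FPKM + 1) (adjusted p = 0.141). Nprl2 had 26.8, 29.7 and 28.5 CPM in control replicates 1, 2 and 3 and 20.7, 21.7 and 22.8 CPM in sorafenib replicates 1, 2 and 3, again without overlap. It was 1.3-fold lower (adjusted p = 0.0104, on a log2 fold change of -0.38 with an SE of 0.08), which missed the threshold only when sorafenib replicate 1 was left out (adjusted p = 0.0612). The remaining GATOR1 gene, Nprl3, which is not a member, had 11.4 ± 0.983 CPM without and 11.7 ± 0.339 CPM with sorafenib with overlapping groups (log2 fold change 0.04, 95% interval -0.19 to 0.27).

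Flcn encodes folliculin, which acts on RagC and RagD and is needed for mTORC1 to restrain the lysosomal factors TFEB and TFE3. It had 65.4, 62.7 and 60.4 CPM in control replicates 1, 2 and 3 and 82.1, 76.2 and 78 CPM in sorafenib replicates 1, 2 and 3, with all sorafenib libraries above all control libraries. Flcn was 1.25-fold higher (adjusted p = 0.00858, on a log2 fold change of 0.33 with an SE of 0.07), which missed the threshold when sorafenib replicate 1 or 3 was left out (adjusted p of 0.0573 and 0.0519). Its partner Fnip1 had 77.1, 63 and 75.6 CPM in the control libraries and 76.2, 67.4 and 79.9 CPM in the sorafenib libraries, which overlapped. Of the Rag GTPase genes, Rragd had 89.9, 88.4 and 92.4 CPM in the control libraries and 95.8, 105 and 104 CPM in the sorafenib libraries. Rragc had 91.3, 100.1 and 98.5 CPM in the control libraries and 107, 101 and 106 CPM in the sorafenib libraries. In both genes the sorafenib libraries were all above the control libraries, but neither passed (adjusted p = 0.115 and 0.288), although Rragc did so on filtered log2(FPKM + 1) (adjusted p = 0.0459). Rraga had 71.7 ± 4.69 CPM without and 66.1 ± 1.36 CPM with sorafenib and did not pass (adjusted p = 0.312). Lamtor1, a subunit of the Ragulator complex that anchors Rag GTPases, had 53.2 ± 7.13 CPM without and 47.6 ± 2.74 CPM with sorafenib (adjusted p = 0.314), and it shares 600 exon bases with Lrrc51 on the opposite strand.

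The letters of members' promoters were read for motifs because TFEB and TFE3 act on genes of this group through the CLEAR element and FOXO factors act through their own. Promoter sequence came from RefSeq (GRCm38.p6, not the build of the counts), which matched 35 of 36 members, and the 250 bases before each start were searched on both strands. The core of the CLEAR element, TCACGTG, which contains the E-box CACGTG, was found for 6 of 35 members, 17.1%, beside 3.58% of the 27025 genes with promoter sequence. By window it was in 6 of 50 member windows and in 3.13% of all windows. The 27025 genes were not limited to expressed ones, while all members passed the filter on low counts, so the shares are not matched. Of the 50 member windows, 37 had their first 25 bases after the start in a GENCODE transcript of that gene. The E-box alone was in the same 6 members and in 6.86% of genes. They are Eif4e, Rragc, Rheb, Lamtor1, Fnip1 and Sgk1, of which Sgk1 alone passed the test of expression. The matches, 5′ to 3′ on the gene's own strand and in capitals with up to 20 bases on each side, are shown for the 4 genes of the lysosomal machinery and for Sgk1, the member with the largest difference.
Rragc (chr4:123917301-123917347, plus strand): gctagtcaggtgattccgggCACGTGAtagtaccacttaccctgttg
Rheb (chr5:24842432-24842478, minus strand): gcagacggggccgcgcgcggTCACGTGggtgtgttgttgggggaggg
Lamtor1 (chr7:101905748-101905794, plus strand): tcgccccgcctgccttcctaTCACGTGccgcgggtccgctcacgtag
Fnip1 (chr11:54438084-54438130, plus strand): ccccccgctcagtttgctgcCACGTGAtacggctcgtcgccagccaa
Sgk1 (chr10:21993640-21993669, plus strand): tccTCACGTGttcttggcatggctaggatt
The matches begin 112, 97, 69, 75 and 247 bases before the start, in that order, and Sgk1 has it at 1 of 6 listed starts. The FOXO motif GTAAACA was found for Pik3cg and Akt1 among the members (5.71%) and for 3.54% of all genes. The Pik3cg match, the only one in a member that passed, starts 92 bases before 1 of its 2 listed starts.
Pik3cg (chr12:32208536-32208582, minus strand): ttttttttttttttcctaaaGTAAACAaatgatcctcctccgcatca
A match describes letters and not binding.

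Sensors upstream of GATOR were measured among 78 other pathway genes, a list outside the 36 members of which 77 were tested, 8 rose and 7 fell, 19.5% beside 17.9% of all genes. All 3 Sestrin genes, whose products hold back mTORC1 through GATOR2 and of which Sestrin2 binds leucine, were higher. Sesn1 rose 1.4-fold, to 20.7 ± 0.578 CPM against 14.8 ± 1.28 CPM in controls (adjusted p = 0.00548), and Sesn3 rose 1.19-fold, to 113 ± 5.35 CPM against 94.5 ± 2.58 CPM in controls (adjusted p = 0.0252). Sesn2 had 67.7, 66.6 and 71 CPM in the control libraries and 121, 102 and 113 CPM in the sorafenib libraries, and was 1.64-fold higher (adjusted p = 0.000216, on a log2 fold change of 0.71 with an SE of 0.08). Sesn3 missed the threshold when control replicate 1 or 3 was left out (adjusted p of 0.0569 and 0.0516) or sorafenib replicate 1 or 3 (adjusted p of 0.125 and 0.127). Castor1, the gene of an arginine sensor that also acts on GATOR2, fell: it had 46.9, 48.2 and 45.7 CPM in the control libraries and 25.6, 29.4 and 27.6 CPM in the sorafenib libraries, and was 1.7-fold lower (adjusted p = 0.000142, on a log2 fold change of -0.77 with an SE of 0.08). The 5 GATOR2 genes and the 3 KICSTOR genes did not pass edgeR's test, and 1 of these 8, Wdr59, had an unadjusted p under 0.05.

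**Figure D4:**
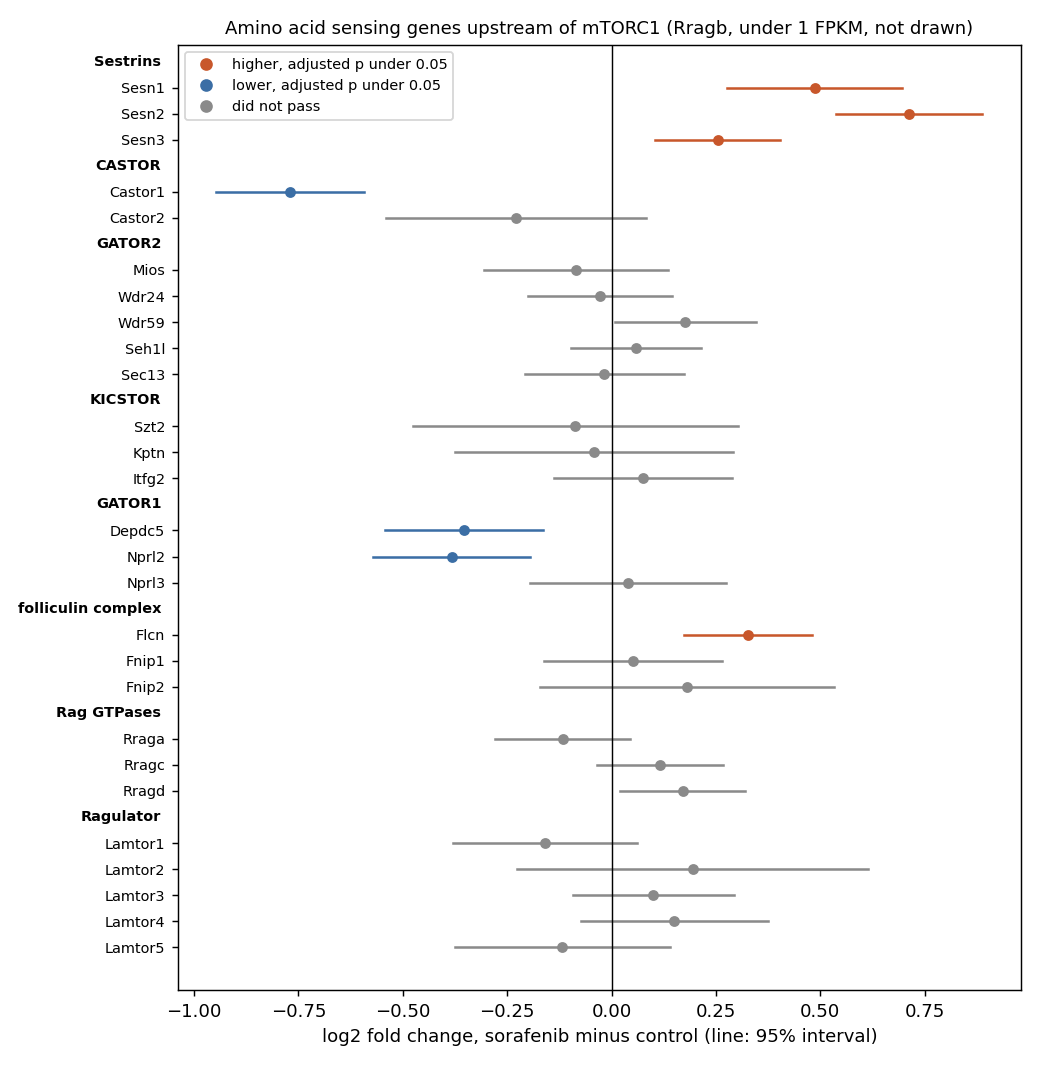
Log2 fold change (sorafenib minus control, x axis) with 95% intervals for genes of amino acid sensing, in rows grouped by complex and coloured by whether the gene rose, fell or did not pass. The 3 Sestrin genes and Flcn lie to the right of 0 and Castor1, Depdc5 and Nprl2 to the left, while GATOR2, KICSTOR, Rag and Ragulator genes did not pass. The Rag gene Rragb is not drawn because of its low level, 0.0969 FPKM without and 0.21 FPKM with sorafenib. Its log2 fold change was 1.04 (95% interval 0.07 to 2.02, adjusted p = 0.136 by edgeR's test).

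In the energy arm, Prkaa1, the catalytic subunit of AMPK, had 44.1, 47.1 and 48.7 CPM in the control libraries and 53.1, 47.2 and 53.2 CPM in the sorafenib libraries, and did not pass (log2 fold change 0.13, 95% interval -0.04 to 0.31). Its lowest sorafenib library lay between the controls. Stk11, the gene of the AMPK activator LKB1, had 113, 115 and 105 CPM in the control libraries and 108, 105 and 108 CPM in the sorafenib libraries, which overlapped (log2 fold change -0.05, 95% interval -0.20 to 0.09). Stk11 shares 232 exon bases with Cbarp on the opposite strand. Of the AMPK genes outside the list, the β2 subunit gene Prkab2 fell 1.35-fold, to 35.8 ± 1.25 CPM against 48.4 ± 8.04 CPM in controls (adjusted p = 0.0211). Prkab2 missed the threshold when control replicate 1 was left out (adjusted p = 0.0524), when control replicate 3 or any 1 sorafenib replicate was (adjusted p of 0.0704 to 0.106), with total counts only (adjusted p = 0.095) and on filtered log2(FPKM + 1) (adjusted p = 0.125). The β1 gene Prkab1 had 45.8 ± 2.73 CPM without and 51.1 ± 0.596 CPM with sorafenib and did not pass (adjusted p = 0.179).

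Downstream of mTORC1, Rps6kb1 encodes the kinase S6K1, which phosphorylates ribosomal protein S6, and Eif4e encodes the cap-binding factor that mTORC1 releases from its inhibitors. Rps6kb1 had 54.5, 54.4 and 52.8 CPM in control replicates 1, 2 and 3 and 45.5, 44.8 and 44.1 CPM in sorafenib replicates 1, 2 and 3. The spread within each group was small and the groups did not overlap, with Rps6kb1 1.2-fold lower (adjusted p = 0.0196, on a log2 fold change of -0.27 with an SE of 0.07). Rps6kb1 missed the threshold when control replicate 3 or any 1 sorafenib replicate was left out (adjusted p of 0.0561 to 0.114), with total counts only (adjusted p = 0.0897) and on filtered log2(FPKM + 1) (adjusted p = 0.161). The gene shares 155 exon bases with Rnft1 on the opposite strand. Eif4e had 92.3, 106 and 97.4 CPM in the control libraries and 89, 88.1 and 89.1 CPM in the sorafenib libraries, with no overlap, and did not pass (adjusted p = 0.181).

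Of related effectors outside the list, Rps6kb2, the gene of the second S6 kinase, fell 1.25-fold, to 16.1 ± 1.04 CPM against 20.2 ± 1.15 CPM in controls (adjusted p = 0.0339). It shares 1224 exon bases with Ptprcap on the opposite strand, so its reads cannot be told apart from those of that lymphocyte gene if the counting ignored strand. Rps6kb2 missed the threshold under 10 of 18 alternatives, among them leaving out control replicate 3 or any 1 sorafenib replicate (adjusted p of 0.06005 to 0.144), total counts only (adjusted p = 0.119) and filtered log2(FPKM + 1) (adjusted p = 0.0921). Of the genes for inhibitors of eIF4E, Eif4ebp1 had 201 ± 44.1 CPM without and 190.2 ± 18.5 CPM with sorafenib (adjusted p = 0.763). Eif4ebp2 had 99.9 ± 7.55 CPM without and 112 ± 3.62 CPM with sorafenib (adjusted p = 0.174).

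Of 4 tested genes of docking proteins that link receptors to PI3K, also outside the list, Gab1 and Gab2 fell, and of 4 tested genes of other class I adaptors and regulatory subunits 1, Pik3ap1, fell, beside 9.43% of all genes. Those that did not pass ranged in log2 fold change from -0.65 for Pik3r6 to 0.68 for Gab3 (adjusted p = 0.22), with Irs2 at -0.24 (adjusted p = 0.0807) and Pik3r2 at 0.21 (adjusted p = 0.0701). Pik3ap1, which encodes the adaptor BCAP known from B cells, had 111, 112 and 116 CPM in the control libraries and 78.7, 83 and 85.1 CPM in the sorafenib libraries and was 1.37-fold lower (adjusted p = 0.00103, on a log2 fold change of -0.46 with an SE of 0.07). Of the B cell markers, 4 of 6 rose and Ebf1 fell. In controls Ebf1 was the highest of them in CPM (mean 19.6) but not per length, with 0.48 FPKM beside 4.61 FPKM for Cd79b. Gab2, a docking protein that binds p85 and SHP2, fell 1.55-fold, to 21.6 ± 1.5 CPM against 33.6 ± 2.67 CPM in controls (adjusted p = 0.00105). Gab1 fell 3.17-fold at a low level, to 0.36 ± 0.167 CPM against 1.15 ± 0.298 CPM in controls (adjusted p = 0.0228), which missed the threshold when control replicate 3 (adjusted p = 0.109) or sorafenib replicate 2 or 3 (adjusted p of 0.0827 and 0.087) was left out. Pik3c2b, a class II PI3K gene, rose 1.77-fold, to 29.6 ± 2.17 CPM against 16.7 ± 3.79 CPM in controls (adjusted p = 0.00339), and the phosphatase gene Inpp5b rose 1.31-fold, to 68.9 ± 0.863 CPM against 52.5 ± 3.15 CPM in controls (adjusted p = 0.00389). Inpp5b shares 110 exon bases with Gm12915, another gene in the table, on the opposite strand.

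The last called genes of the list outside the 36 act on the mTOR complexes and were low in level. Prr5l, whose product binds mTORC2, rose 1.34-fold, to 11.1 ± 0.96 CPM against 8.31 ± 0.938 CPM in controls (adjusted p = 0.0394). Prr5l missed the threshold when control replicate 3 or any 1 sorafenib replicate was left out (adjusted p of 0.0676 to 0.17) and on filtered log2(FPKM + 1) (adjusted p = 0.0557). Grb10, an adaptor and mTORC1 substrate that dampens receptor signalling, rose 2.05-fold, to 2.36 ± 0.595 CPM against 1.15 ± 0.146 CPM in controls (adjusted p = 0.0225), but missed the threshold when control replicate 1 (adjusted p = 0.0567) or sorafenib replicate 1 or 3 (adjusted p of 0.123 and 0.0887) was left out. Ddit4l, a relative of the mTORC1 inhibitor gene Ddit4, had 3, 7 and 6 counts in the control libraries and 42, 43 and 40 in the sorafenib libraries (adjusted p = 0.00137). Ddit4 itself, at 973 ± 157 CPM without and 955 ± 124 CPM with sorafenib, did not pass (adjusted p = 0.925).

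Across the 36 members, levels per length spanned from 0.0412 FPKM for Deptor to 104 FPKM for Pik3cd in control cells. After Pik3cd and Akt1, the next genes in control cells were Sgk1 with 53.9 ± 2.8 FPKM, Lamtor1 with 43.5 ± 3.73 FPKM and Rraga with 43.3 ± 2.2 FPKM. Lamtor1 and Rraga did not differ beyond their spread in control cells. The control values of Akt1 and Sgk1 overlapped, with Sgk1 below Akt1 within each library. In sorafenib cells Sgk1 had 29.7 ± 1.58 FPKM, also below Rraga, Lamtor1, Rragc, Foxo3, Stk11 and Rheb.

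**Figure D5:**
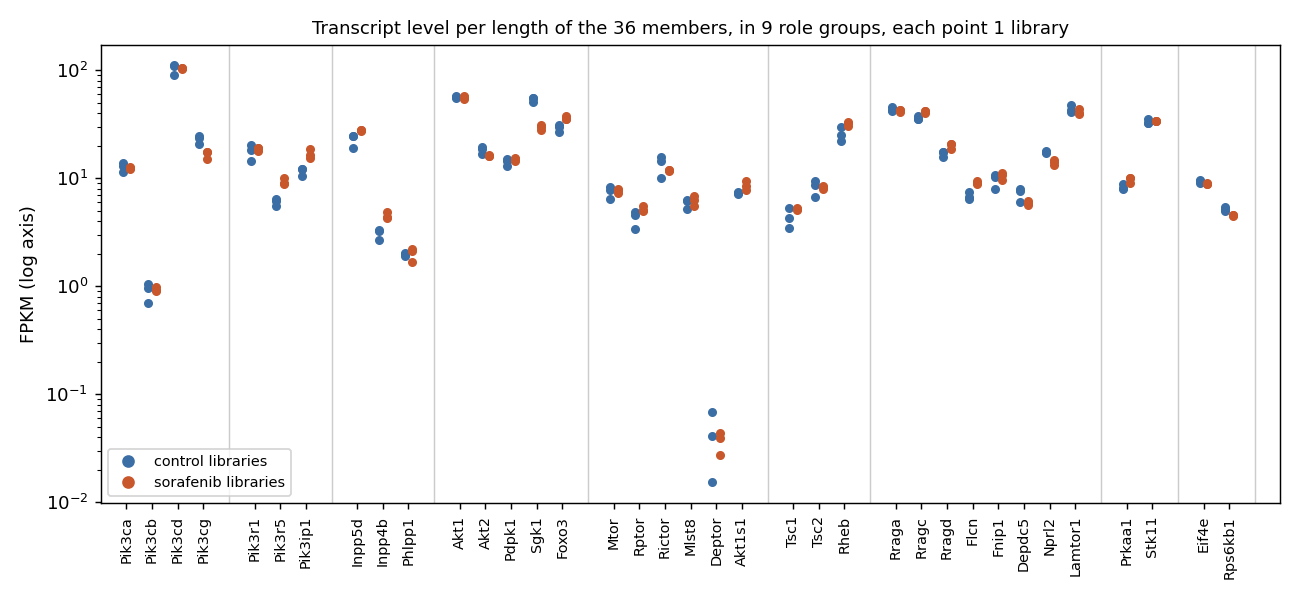
FPKM of all 36 members on a log axis, in 9 groups by role from PI3K catalytic subunits at the left to mTORC1 effectors at the right, with 1 point for each control and sorafenib library. Pik3cd sits highest in all libraries and Deptor lowest, and Sgk1 shows a clear gap between the groups.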

How the data were processed

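The authors deposited whole-number counts per gene and a table of FPKM. Each deposited FPKM with at least 10 counts matched count over length and column total (100% of values, tolerance 0.001 as a fraction). The length of each gene was the median implied by these same counts and FPKM, not an annotated length. The match therefore shows only that a constant length per gene fits all libraries. The submitters' processing notes name fastp, HISAT2, HTSeq, R 3.2.0, DESeq2 and GRCm39. Strand setting and handling of multiply matching reads: not given in the sources used here.

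A filter on low counts (filterByExpr) left 13255 genes. TMM factors and the quasi-likelihood F test of edgeR 4.0.16 (robust, group alone in the model) were used in R 4.3.3, adjusted by Benjamini-Hochberg over those genes. SEs and 95% intervals derive from the F statistic. The common biological coefficient of variation was 10.9%, and the floor of 3 counts was 0.0787 to 0.0811 CPM. The script was tested on simulated data. The members, the other lists and the 18 alternatives were chosen with earlier results of these data known. All members and the genes of the other lists that passed are named, except for some genes that are not reported here, together with some that did not pass, chosen after their values were seen. The alternatives were 3 other scalings (DESeq2 size factors, upper-quartile, total counts), no filter, a filter of CPM of at least 1 in 3 libraries, a replicate block, each of 6 libraries left out, DESeq2 1.42.0, limma-voom (limma 3.58.1), limma on log2(FPKM + 1) with a filter of mean FPKM of at least 0.5 and without one, on filtered log2(FPKM + 0.1), and a loess correction for gene length. The count over genes of at least 20 CPM and the shares and ratios were added after seeing the data. Shared exon bases come from GENCODE M21 (GRCm38).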

Additional observations from a re-analysis of the deposited data

How the results depend on the processing

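Of the 11 members called, 5 (Pik3cg, Pik3r5, Pik3ip1, Inpp4b and Sgk1) passed under all 18 alternatives and 6 lost the call under at least 1, with 0 changes of direction among the 11. Leaving out 1 library at a time called 5 to 13 members (11 with all), 8 to 28 of the other pathway genes (15 with all), 7 to 12 of the FOXO-responsive genes (8 with all) and 1243 to 4325 of all genes (2378 with all). The highest value came without control replicate 2 for each of these 4 counts, and the cause was not tested. On log2(FPKM + 1) with no filter, 7 members, 9 other pathway genes and 1423 of all genes were called; this fit tests 21233 genes, and the cause was not tested. With the gene length trend removed 13 FOXO-responsive genes and 14 members were called; the cause was not tested. Total counts alone called 1496 genes higher and 826 lower, against 1128 and 1250 with TMM. Among members that did not pass, 6 gained a call under at least 1 alternative. The replicate block called 10 members, 13 other pathway genes, 7 FOXO-responsive genes and 2139 of all genes, with adjusted p = 0.0963 for Foxo3, 0.0544 for Sesn3 and 0.0602 for Rps6kb2, whose calls it ended. Deviations of same-numbered libraries correlated at -0.0627, 0.152 and 0.102, and 2 of 3 control libraries correlated best with their own number, and since not every pair was above 0.1 the numbers were not taken to pair the libraries. Deptor could not be tested in the 3 fits with a filter stricter than the main one. At this depth members near 5 CPM or less could show only differences wider than their intervals.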

Other observations

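A list of 18 genes described as responsive to FOXO factors, in T cells or other cells, moved both ways. It shares Pik3ip1 and Rictor with the 36 members, and Sesn1, Sesn3 and Irs2 with the other pathway genes. Of the 18 genes 6 rose and 2 fell, 44.4% beside 17.9% of all genes tested. The median log2 fold change was -0.02. The list was chosen with earlier results of these data known. It was not sorted by whether FOXO factors raise or lower each gene. Its share and median therefore do not measure a FOXO response. Klf2, a quiescence factor that controls T cell migration, had 8.07, 8.13 and 8.15 CPM in the control libraries and 14.8, 14.4 and 15.8 CPM in the sorafenib libraries and was 1.85-fold higher (adjusted p = 0.000218, on a log2 fold change of 0.88 with an SE of 0.10). Tcf7, a factor of naive and memory-like T cells, rose 1.89-fold, to 213 ± 13.8 CPM against 113 ± 8.37 CPM in controls (adjusted p = 4.54e-05). Sesn1, Sesn3 and Pik3ip1 were also among the genes that rose. Il7r, the interleukin 7 receptor gene, had 156, 159.8 and 166 CPM in the control libraries and 103, 102 and 106 CPM in the sorafenib libraries and was 1.55-fold lower (adjusted p = 0.000126, on a log2 fold change of -0.63 with an SE of 0.06), and the cyclin gene Ccng2 fell 1.35-fold, to 221 ± 11.8 CPM against 299 ± 18.3 CPM in controls (adjusted p = 0.00281). S1pr1, the gene of a receptor for T cell exit from lymph nodes, had 49 ± 3.55 CPM without and 48.1 ± 3.02 CPM with sorafenib (adjusted p = 0.864). Ccr7, a chemokine receptor gene, had 792 ± 81.1 CPM without and 685 ± 62.3 CPM with sorafenib (adjusted p = 0.198), so neither passed. Of the 8 genes called, 7 passed under all 18 alternatives, Sesn3 being the exception. The changes of the listed genes were not tied to FOXO activity by any measurement here.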
